A study of Mus musculus with 12 samples.

Results

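Immediate early genes are switched on within minutes of a stimulus from factors that are already in the cell, and their RNA and protein are short-lived. The 10 members of this class studied here were taken by symbol from a count table of heart RNA: Fos, Fosb, Jun, Junb, Egr1, Atf3, Ier2, Nr4a1, Dusp1 and Klf4. They are 10 of its 25171 loci, the rule used no measured value, and all 10 had enough counts to be tested in every comparison.

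The study expressed NOTCH2NLC with 98 GGC repeats in mice and sequenced RNA of 12 hearts, 3 in each of 4 groups. All mice carried, at the Rosa26 site, a conditional transgene that is silent until Cre recombinase removes a stop cassette. EIIa-tg mice also carried EIIa-Cre, which acts ubiquitously and from the embryo on, and EIIa-ctl were littermates without this Cre; both groups were 30 days old. Myh6-tg mice are described as carrying Myh6-creERT2, a Cre made in cardiomyocytes that needs tamoxifen. They received 3 intraperitoneal injections of tamoxifen in corn oil at 75 mg/kg from day 60. Myh6-ctl mice bear the same genotype label and received corn oil, and both groups were collected at day 90. Age, Cre driver and injection thus differ together between the models, and their parts cannot be told apart. Within the Myh6 model only the transgenic mice received tamoxifen, and within the EIIa model only they carried Cre. The parts of tamoxifen, Cre and the expressed repeat cannot be told apart within a model either.

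Immediate early genes act downstream of the RAS and MAP kinase cascade and of calcium and cAMP signals, through serum response factor with its partners and through CREB at their promoters. FOS and JUN proteins pair into AP-1, which carries the signal on to later genes, while DUSP1 dephosphorylates MAP kinases and so closes the loop. In the heart these genes are known to respond to stretch, pressure load, hormones and ischemia, and also to the cutting and warming of tissue at dissection, which makes them a usual check of how a heart was handled.

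The control regions of the 3 genes on which the results turn, Fos, Junb and Atf3, are shown because each holds the letters of a site that CREB and ATF proteins bind. The 150 bases before the RefSeq start are given 5′ to 3′ on the strand of the gene (GRCm38.p6; Fos at chr12:85473740-85473889 on the plus strand, Junb at chr8:84978749-84978898 and Atf3 at chr1:191183334-191183483 on the minus strand). Capitals mark TGACG, or its reverse complement, the shorter form of the cAMP response element (CRE).
Fos: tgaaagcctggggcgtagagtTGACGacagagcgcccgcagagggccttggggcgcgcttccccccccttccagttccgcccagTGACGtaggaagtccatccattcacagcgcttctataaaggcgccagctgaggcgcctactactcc
Junb: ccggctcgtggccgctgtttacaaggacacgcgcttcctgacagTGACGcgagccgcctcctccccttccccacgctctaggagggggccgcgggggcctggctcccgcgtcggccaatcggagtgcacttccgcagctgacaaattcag
Atf3: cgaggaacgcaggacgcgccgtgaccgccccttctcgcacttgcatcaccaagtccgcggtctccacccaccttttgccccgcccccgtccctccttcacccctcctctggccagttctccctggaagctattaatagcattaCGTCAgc
The start used for Atf3 lies inside the longer span that GENCODE gives this gene. Promoter windows of 300 bases, from 250 before to 50 after the start, were matched for 8 of the 10 members, all but Egr1 and Ier2. TGACG was present on either strand in 7 of these 8, Jun being the exception, and in 20.8% of all 32851 windows. The complete CRE, TGACGTCA, which includes the shorter form on both strands, was found in Dusp1 alone among the members and in 1.79% of all windows. The EGR site GCGNGGGCG was found in 3 members (Fosb, Nr4a1 and Klf4) and in 5.55% of windows, the AP-1 site TGANTCA in 0 members and 7.81%, and the CArG box of serum response factor in 0 members and 1.63%. These are matches of letters in a window, and no binding was measured. Sites further from the start, and those of Egr1 and Ier2, were not searched, so a 0 does not mean that a gene lacks the site.

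The members are spread over the genome (GRCm38) in the GENCODE M21 annotation, and each row of counts covers a whole protein-coding gene. Fos (ENSMUSG00000021250) is at chr12:85473890-85477273, Fosb (ENSMUSG00000003545) at chr7:19302696-19310051, Jun (ENSMUSG00000052684) at chr4:95049034-95052222 and Junb (ENSMUSG00000052837) at chr8:84974484-84978718. Egr1 (ENSMUSG00000038418) is at chr18:34859823-34864984, Klf4 (ENSMUSG00000003032) at chr4:55527143-55532466 and Nr4a1 (ENSMUSG00000023034) at chr15:101254269-101274795. Atf3 (ENSMUSG00000026628) is at chr1:191170296-191218039, Ier2 (ENSMUSG00000053560) at chr8:84661331-84662852 and Dusp1 (ENSMUSG00000024190) at chr17:26505590-26562128. Jun, Junb, Atf3 and Dusp1 overlap a gene on the opposite strand (Junos, Prdx2, Gm24748 and Ergic1, respectively), and since no source states that counting used the strand, reads in the shared stretches cannot be told apart. Dusp1 also overlaps the pseudogene Gm8225 on the opposite strand and 2 genes on its own strand, whose reads strand could not separate either.

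Between 38343106 and 50969834 reads were counted per heart, so that 3 counts, the smallest number taken as detected, equal 0.0589 to 0.0782 CPM (counts scaled to a common library size), for counting error only. The extraction label names brain, but 5 cardiomyocyte markers (Myh6, Tnnt2, Actn2, Ryr2, Tnni3) summed to between 5480 and 23300 CPM and 5 brain markers to between 2.12 and 7.46 CPM in the 12 hearts. Replicate 1 of every group had 4224 to 7307 counts on Y-linked genes and the other hearts 2 or fewer. Esr1 encodes the estrogen receptor, a piece of which is fused to Cre in creERT2. It stood at 1067 to 2023 CPM in the hearts labelled Myh6-ctl but at 1.31 to 3.03 in those labelled Myh6-tg, although both are labelled with the same genotype; in EIIa hearts it was at most 1.24. The groups are called as the labels call them, and directions in the Myh6 model are between hearts so labelled. Were these labels exchanged, each sign of Myh6-tg against Myh6-ctl would turn, which was not tested. Myh6-tg replicate 1 stood apart from its group, with a chi-square per gene of 297 and 356 against the other replicates, which differed by 42.8 from each other. Its cardiomyocyte markers summed to 16600 CPM beside 6610 and 5480, and its 5 macrophage markers to 1480 beside 595 and 586. The genotype tags of EIIa-tg replicates 2 and 3 differ from that of replicate 1 (e3a and e4a in place of e2a), and these hearts were grouped by their titles.

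Junb, Fos and Atf3 were higher in the hearts labelled transgenic in both models, whereas Jun, Klf4, Fosb and Nr4a1 passed the test in neither. At an adjusted p under 0.05 (edgeR), 3 of the 10 genes were higher and 0 lower in EIIa-tg, where 17.0% of the 14908 genes tested passed and 8.65% passed as higher. In Myh6-tg 4 of the 10 were higher and 0 lower, Ier2 being the fourth, where 18.3% of 15298 genes passed and 8.96% passed as higher. With the replicate number as a block, 2 remained in Myh6-tg, Junb and Atf3, where 20.9% of all genes passed. The stricter call of the study, an adjusted p under 0.01 with a log2 fold change of at least 1, was met by 0 members in either model, against 0% of all genes in EIIa-tg and 3.97% in Myh6-tg. At an unadjusted p under 0.05 there were 4 members in EIIa-tg and 6 in Myh6-tg (34.9% and 34.1% of all genes), and DESeq2 put 3 members past the stricter call in each model, beside 4.34% of all genes in EIIa-tg and 10.7% in Myh6-tg. The median log2 fold change of the 10 was 0.83 in EIIa-tg and 0.66 in Myh6-tg, beside 0.0155 and 0.032 over all genes tested.

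**Figure D1:**
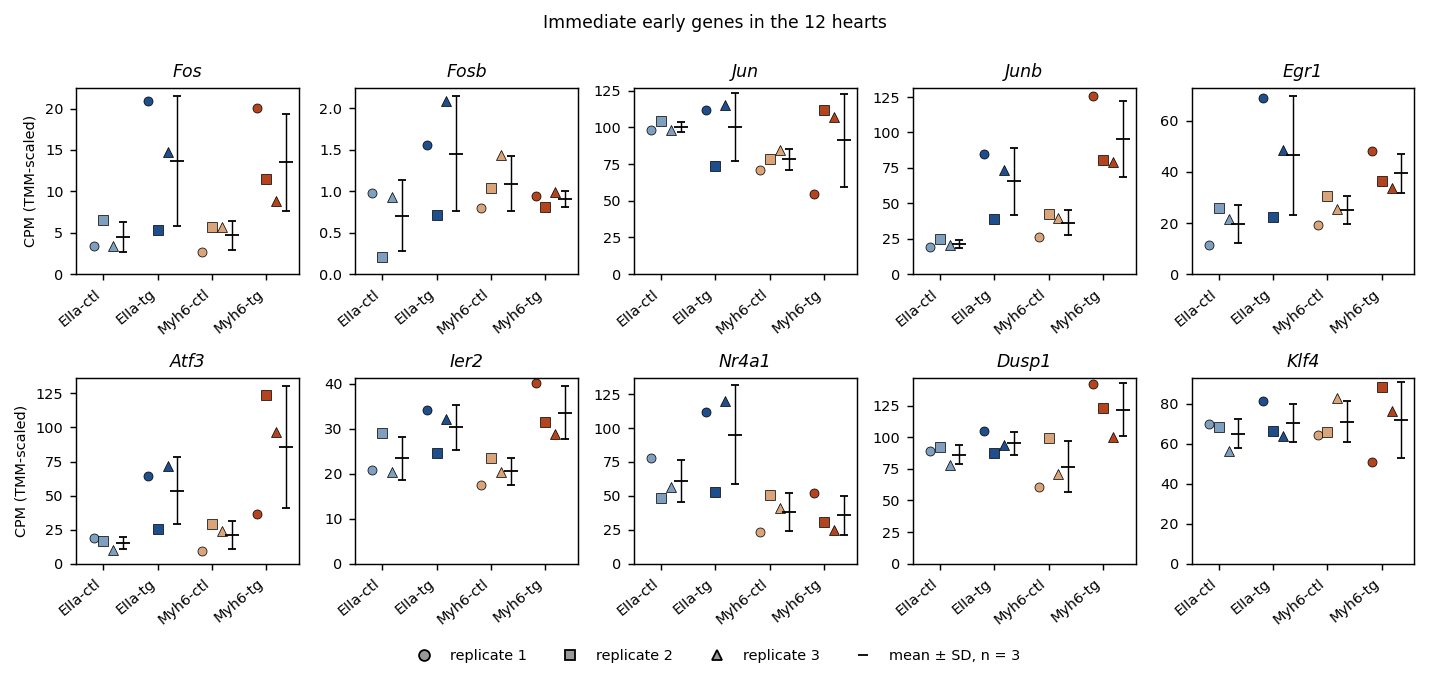
Level of each of the 10 genes in every heart, in CPM scaled by TMM (vertical axis, from 0, a range of its own for each gene), by group (horizontal axis). Symbols are replicates 1 to 3 and the bar is the mean ± SD (n = 3). Junb and Atf3 of the transgenic hearts lie above those of their own controls in both models, while Fos in EIIa-tg replicate 2, at 5.3 CPM, lies among the controls.

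Junb and Fos are subunits of AP-1. Junb stood at 19.5, 24.6 and 20.3 CPM in EIIa-ctl replicates 1 to 3 and at 84.6, 39.1 and 73.3 in EIIa-tg replicates 1 to 3. In Myh6-ctl it stood at 26.3, 42.8 and 39.6 and in Myh6-tg at 126, 80.9 and 79.1 CPM. The transgenic and control hearts did not overlap in either model. Junb rose by 1.61 ± 0.26 (log2 fold change ± SE) in EIIa-tg (adjusted p = 0.0166) and by 1.39 ± 0.27 in Myh6-tg (adjusted p = 0.0141), which are 3.05-fold and 2.63-fold. In EIIa-tg the call was lost without EIIa-ctl replicate 1 (0.0775), EIIa-ctl replicate 3 (0.0785), EIIa-tg replicate 1 (0.0545) or EIIa-tg replicate 3 (0.055), and in Myh6-tg without Myh6-ctl replicate 1 (0.0541).

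Fos was scarcer, at 3.41, 6.54 and 3.4 CPM in EIIa-ctl, from 125 to 251 counts, and at 20.9, 5.3 and 14.8 CPM in EIIa-tg. Replicate 2 of EIIa-tg lay below the highest control heart, and the other EIIa-tg hearts lay above all controls. In Myh6-ctl Fos stood at 2.67, 5.72 and 5.64 CPM and in Myh6-tg at 20.1, 11.5 and 8.86, with no overlap. Fos rose by 1.61 ± 0.47 in EIIa-tg (adjusted p = 0.0497) and by 1.53 ± 0.4 in Myh6-tg (adjusted p = 0.0371; 1.49 with an adjusted p of 0.0645 when the replicate number was a block). Both calls were lost on leaving out nearly any single heart. Calls over all genes were lost as well: without EIIa-ctl replicate 1, EIIa-ctl replicate 3 or EIIa-tg replicate 1, 0, 1 and 0 genes passed. In EIIa-tg the adjusted p was between 0.0515 and 0.163 when any heart but EIIa-tg replicate 2 was left out, and 0.00345 without that heart. In Myh6-tg it was 0.0493 without Myh6-tg replicate 3 and 0.0559 to 0.103 without any other heart.

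Jun and Fosb passed the test in neither model. Jun, the highest in FPKM of the 4 AP-1 genes among the members in control hearts (27.7 in EIIa-ctl and 22 in Myh6-ctl on average), stood at 97.9 to 104 CPM in EIIa-ctl and at 112, 73.5 and 115 in EIIa-tg, a log2 fold change of -0.01 ± 0.16 (adjusted p = 0.986; 0.16 with limma on log2(FPKM + 1)). In Myh6-ctl it stood at 71 to 84.8 CPM and in Myh6-tg at 54.7, 112 and 107, a log2 fold change of 0.22 ± 0.28 (adjusted p = 0.618). Jun thus spread more widely among the transgenic than among the control hearts, with an SD of 23 against 3.46 CPM in the EIIa model and 31.7 against 6.95 in the Myh6 model. Fosb was close to the lower limit of what these libraries measure, with 8 to 94 counts per heart. Its log2 fold change was 1.03 ± 0.62 in EIIa-tg (adjusted p = 0.272) and -0.26 ± 0.47 in Myh6-tg (adjusted p = 0.736).

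Atf3, a bZIP factor induced by many stresses that often represses its targets, had the largest log2 fold change of the 10 in each model. It stood at 18.8, 16.9 and 10.2 CPM in EIIa-ctl and at 64.2, 25.3 and 71.5 in EIIa-tg. In Myh6-ctl it stood at 9.63, 29.4 and 24.2 CPM and in Myh6-tg at 36.7, 124 and 96.6. The groups did not overlap in either model, and the lowest transgenic heart, replicate 2 of EIIa-tg or replicate 1 of Myh6-tg, stood well apart from the other hearts of its group. Atf3 rose by 1.8 ± 0.38 in EIIa-tg (adjusted p = 0.0229) and by 2.03 ± 0.53 in Myh6-tg (adjusted p = 0.0357), or 3.48-fold and 4.08-fold. In EIIa-tg the call was lost without EIIa-ctl replicate 1 (0.0804), EIIa-ctl replicate 3 (0.0935), EIIa-tg replicate 1 (0.0738) or EIIa-tg replicate 3 (0.0778). In Myh6-tg it was lost without any one control (0.101, 0.0667 and 0.0955 for replicates 1 to 3), without Myh6-tg replicate 2 (0.102) or without Myh6-tg replicate 3 (0.0906).

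Egr1, a zinc finger factor, and Ier2, a small nuclear protein, differed less. Egr1 stood at 11.4, 25.9 and 21.7 CPM in EIIa-ctl and at 68.8, 22.2 and 48.6 in EIIa-tg, so that EIIa-tg replicate 2 lay among the controls; its log2 fold change was 1.24 ± 0.41 (adjusted p = 0.07). In the Myh6 model it stood at 19.4, 30.5 and 25.4 CPM in controls and at 48.1, 36.3 and 33.9 in Myh6-tg, without overlap, with 0.65 ± 0.23 (adjusted p = 0.0844; 0.0125 to 0.0272 in the 3 settings of limma on log2 FPKM). Ier2 stood at 20.9, 29 and 20.3 CPM in EIIa-ctl and at 34.1, 24.7 and 32.2 in EIIa-tg, a log2 fold change of 0.37 ± 0.17 (adjusted p = 0.169). In Myh6-ctl it stood at 17.6, 23.5 and 20.4 CPM and in Myh6-tg at 40.2, 31.6 and 28.9. The Myh6 groups did not overlap, and Ier2 rose by 0.71 ± 0.2 in Myh6-tg (adjusted p = 0.0438; 0.0604 with the replicate number as a block). This call was lost whichever heart was left out, with an adjusted p of 0.0537 to 0.147, and also with RLE factors (0.0507), with no filter on low counts (0.053) and without the mitochondrial genes (0.0522).

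Dusp1, the phosphatase that limits MAP kinase activity, had the highest mean FPKM of the 10 in every group. It stood at 89, 91.9 and 77.8 CPM in EIIa-ctl and at 105, 87.3 and 93.5 in EIIa-tg, a log2 fold change of 0.14 ± 0.11 (adjusted p = 0.378). In Myh6-ctl it stood at 60.6, 99 and 70.7 CPM and in Myh6-tg at 142, 123 and 100, where the lowest transgenic heart barely exceeded the highest control. Its log2 fold change there was 0.66 ± 0.24 (adjusted p = 0.0898; 0.0184 when all 12 hearts shared one estimate of the spread). Nr4a1, an orphan nuclear receptor, stood at 78.2, 48.4 and 56.5 CPM in EIIa-ctl and at 112, 53.1 and 120 in EIIa-tg, with 0.63 ± 0.29 (adjusted p = 0.165). In the Myh6 model it stood at 23.3, 50.8 and 41.3 CPM in controls and 52.2, 30.5 and 24.8 in Myh6-tg, with -0.1 ± 0.36 (adjusted p = 0.873), a sign that turned with limma on log2(FPKM + 1) (0.27). Klf4, a zinc finger factor of vascular and stem cells, lay between 56.6 and 81.5 CPM in the EIIa hearts and between 50.9 and 88.4 in the Myh6 hearts, and its log2 fold change was 0.11 ± 0.13 and 0.02 ± 0.24 (adjusted p = 0.565 and 0.972).

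**Figure D2:**
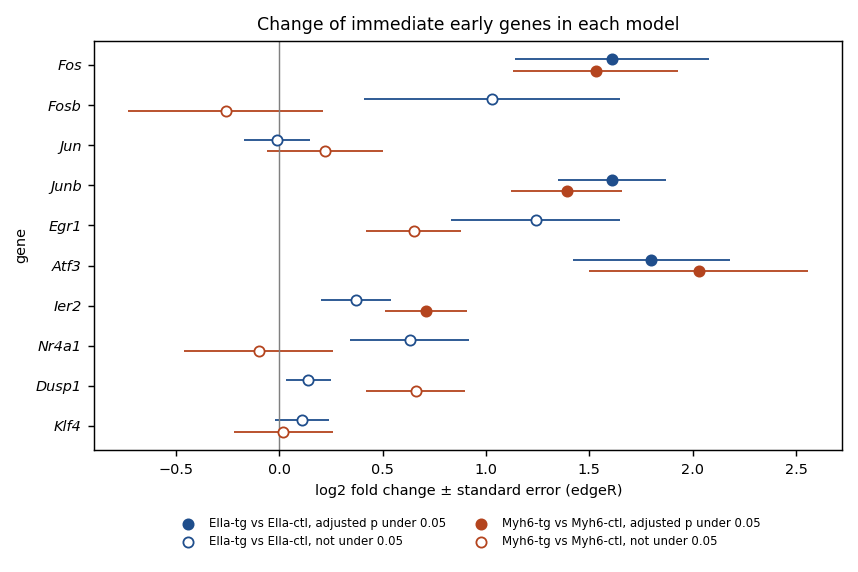
Log2 fold change (horizontal axis) with its standard error for the 10 genes (vertical axis) in the EIIa model (blue) and the Myh6 model (red), from edgeR. Filled points have an adjusted p under 0.05; Fos, Junb and Atf3 are filled in both models and Ier2 in Myh6-tg, and open points are the other values.

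Counted without a test, the transgenic and control hearts did not overlap in 2 members in EIIa-tg (Junb and Atf3) and in 6 in Myh6-tg (Fos, Junb, Egr1, Atf3, Ier2 and Dusp1), all higher. Over all genes tested the groups did not overlap in 41.1% and 40.2%, in either direction. Single hearts moved the count of all genes as well as that of the members. Without EIIa-tg replicate 2, 5 members had an adjusted p under 0.05, as did 26.6% of all genes, and 4 met the stricter call, as did 6.02%, with Egr1 at 1.57 (adjusted p = 0.009) and Nr4a1 at 0.91 (adjusted p = 0.00937) added to Fos, Junb and Atf3. Without EIIa-ctl replicate 1 or 3, or EIIa-tg replicate 1 or 3, the count at an adjusted p under 0.05 was 0, where 0, 1, 0 and 133 genes passed of all those tested, and without EIIa-ctl replicate 2 it was 2 (11.7% of all genes). In the Myh6 model the count was 0 without Myh6-ctl replicate 1 (5.01% of all genes) and 1 or 2 without any other heart (6.17% to 26.7%). Sex was also added as a covariate, male being replicate 1 of each group (100 or more Y-linked counts). Fos in EIIa-tg then had an adjusted p of 0.0811 and the other 6 calls were kept.

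The change in a gene was then compared between models by a contrast of the differences in all 12 hearts. None of the 10 genes passed at an adjusted p under 0.05, where 3.92% of 15929 genes did, or at the stricter call, which 0.622% met; 0 members had an unadjusted p under 0.05 and DESeq2 called 0. The changes in Fos, Junb and Atf3 differed by -0.09 ± 0.68, -0.22 ± 0.4 and 0.22 ± 0.71 on the log2 scale (Myh6 minus EIIa), and these errors leave room for sizeable differences. The largest values were -1.3 ± 0.8 for Fosb (adjusted p = 0.406), -0.74 ± 0.52 for Nr4a1 (0.475), -0.59 ± 0.53 for Egr1 (0.584) and 0.52 ± 0.26 for Dusp1 (0.311).

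The controls of the models, which differ in age, Cre and injection, were compared in the same way. At an adjusted p under 0.05 and at the stricter call 0 members passed with edgeR, where 0.0334% of 14990 genes did; 3 members (Junb, Jun and Nr4a1) had an unadjusted p under 0.05, as did 11.3% of all genes, and DESeq2 called Junb at an adjusted p of 0.0324. Junb was 0.76 ± 0.2 higher on the log2 scale in Myh6-ctl (adjusted p = 0.203) and Jun 0.35 ± 0.13 lower (a log2 fold change of -0.35, adjusted p = 0.341). These were the 2 members whose control groups did not overlap, beside 17.4% of all genes. The median log2 fold change of the members was 0.1. These contrasts share hearts with those above.

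Set side by side per length of transcript, in the FPKM of the authors, the order of the members also differed between groups. In EIIa-ctl hearts the order was Dusp1 (38.3 ± 4.17 FPKM, SD, n = 3), Jun (27.7 ± 2.06), Nr4a1 (21.7 ± 4.63), Klf4 (19 ± 2.32), Ier2 (13.6 ± 3.39), Junb (10.5 ± 1.78), Atf3 (6.81 ± 2), Egr1 (3.9 ± 1.6), Fos (1.88 ± 0.84) and Fosb (0.159 ± 0.0953). Neighbours in this order overlapped within 1 SD of their means, except Dusp1 with Jun and Fos with Fosb. In Myh6-ctl hearts it was Dusp1 (34.1 FPKM), Jun (22), Klf4 (21.2), Junb (17.9), Nr4a1 (13.8), Ier2 (12), Atf3 (9.5), Egr1 (4.99), Fos (1.99) and Fosb (0.266). The order thus differed between the control groups as well. In EIIa-tg hearts it was Dusp1 (48.4 FPKM), Nr4a1 (39.1), Junb (36.8), Jun (31.8), Atf3 (27.7), Klf4 (23.5), Ier2 (20.2), Egr1 (10.5), Fos (6.57) and Fosb (0.392). In Myh6-tg hearts the order was Dusp1 (71.2 ± 6.05 FPKM), Junb (61 ± 11.6), Atf3 (52.3 ± 28.8), Jun (34.2 ± 13.8), Klf4 (28.2 ± 8.95), Ier2 (25.7 ± 2.22), Nr4a1 (16.5 ± 4.98), Egr1 (10.2 ± 1.07), Fos (7.34 ± 2.53) and Fosb (0.281 ± 0.0442). Here Ier2 and Nr4a1, Nr4a1 and Egr1, and Fos and Fosb did not overlap, and all other neighbours did. FPKM are scaled to all mapped fragments, which moves the difference between groups by 0.19 in the EIIa and 0.4 in the Myh6 model on the log2 scale relative to TMM.

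The mean level of the 10 genes, as log2 CPM minus the mean of the 12 hearts, was -0.4, -0.38 and -0.5 in EIIa-ctl, 0.76, -0.22 and 0.65 in EIIa-tg, -0.75, -0.07 and -0.15 in Myh6-ctl and 0.39, 0.42 and 0.26 in Myh6-tg replicates 1 to 3. All transgenic hearts lay above their own controls on this mean. EIIa-tg replicate 2 was the lowest heart of its group in 9 of 10 members, all but Klf4, beside 38.7% of all genes. Myh6-ctl replicate 1 was the lowest of its group in 10 of 10 members, beside 31.5% of all genes.

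In Myh6-tg, replicate 1 had the highest level of Fos, Junb, Egr1, Ier2, Nr4a1 and Dusp1 and the lowest of Jun, Atf3 and Klf4. This library was the highest of its group in 43.6% of all genes and the lowest in 42.5%, so that an extreme place there is not particular to the members. As a description, with each gene centred on its group means, the correlation over the 12 hearts was r = 0.975 for Fos with Junb, 0.932 with Ier2 and 0.876 with Egr1. Over the 11 hearts without Myh6-tg replicate 1, an alternative chosen after seeing the data, these values were 0.972, 0.92 and 0.877. The correlation of Fos with Jun, 0.127 over the 12 hearts, was 0.892 without that library, that of Fos with Atf3 was 0.405 and 0.845, and that of Fos with Klf4 was 0.0145 and 0.53. These low values of Fos thus rest on 1 library. Other pairs stayed low without it, among them Fos with Fosb (0.134 and 0.133), Fosb with Ier2 (-0.152 and -0.19) and Egr1 with Klf4 (-0.051 and 0.202). Jun with Atf3 had 0.845 and 0.805, and Jun with Klf4 had 0.773 and 0.391. The hearts share libraries, scaling and 1 male per group, so these values carry no test. Neither the labels nor the methods give the order of dissection or the time to freezing, and handling was not tested.

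**Figure D3:**
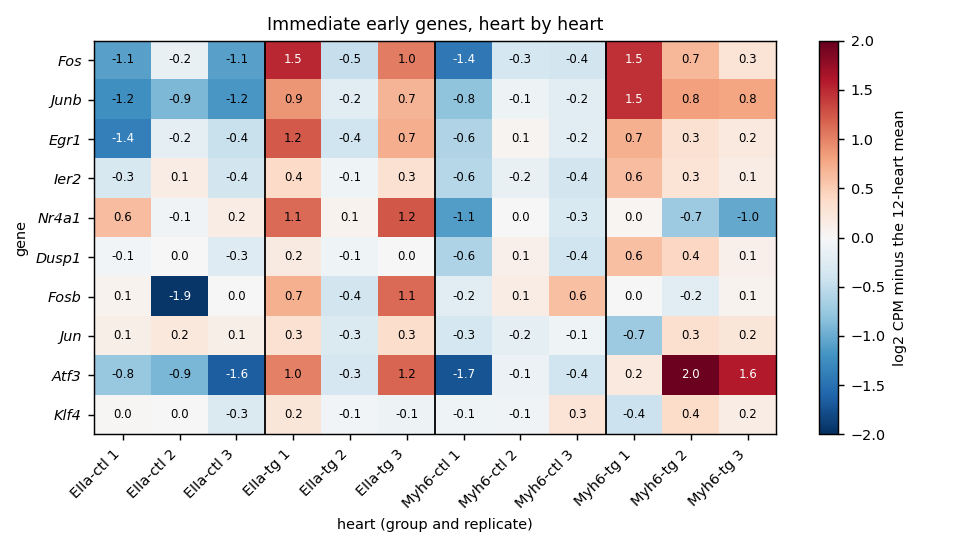
Log2 CPM of each gene minus its mean over the 12 hearts (colour and number in each cell), with genes in rows and hearts in columns, grouped by black lines. Within Myh6-tg, Fos, Junb, Egr1, Ier2, Nr4a1 and Dusp1 are highest in replicate 1 and Jun, Atf3 and Klf4 are lowest there, and EIIa-tg replicate 2 is paler than the other EIIa-tg hearts.

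Genes around the members were read from lists of known relatives. Of 30 other immediate early and early response genes, 12 rose and 0 fell in EIIa-tg, with a median log2 fold change of 0.73, and 16 rose and 0 fell in Myh6-tg, with a median of 1.01. In Myh6-tg 7 of them met the stricter call, as did 3.97% of all genes tested. Over all genes, 8.65% rose past the test in EIIa-tg and 8.96% in Myh6-tg. Ccn2, a matricellular protein gene of fibrosis, went from 94.2 ± 13.4 to 372 ± 131 CPM in the EIIa model (log2 fold change 1.97, adjusted p = 0.0135) and from 213 ± 137 to 2360 ± 193 in the Myh6 model (3.47, adjusted p = 0.00875). Ccn1, of the same family, went from 57.2 ± 13.5 to 290 ± 32.9 CPM in the Myh6 model (2.34, adjusted p = 0.00222), and was 47.1 ± 7.36 and 78.8 ± 33.1 in the EIIa model (0.73, adjusted p = 0.115). Maff, a small MAF factor, rose in both (1.34 with an adjusted p of 0.0135, and 1.54 with 0.00889). Of the remaining FOS and JUN family genes, named after their values were seen, Jund rose in EIIa-tg (0.56, adjusted p = 0.0282; 0.84 with 0.142 in Myh6-tg). Fosl1 and Fosl2 rose in Myh6-tg (2.5, adjusted p = 0.0038, and 1.07, adjusted p = 0.0204), and stood at 0.1 and 0.34 in EIIa-tg (adjusted p = 0.861 and 0.22).

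Few genes of the kinases and factors that act upstream of the members passed the test. Only their RNA was measured, not the activity of the proteins. Of 21 such genes, which include the RAS and RAF genes, Mapk3, Srf, Elk1 and Creb1, 0 rose and 1 fell in EIIa-tg (Mapk9, the kinase JNK2, -0.51, adjusted p = 0.0324), and 1 rose and 1 fell in Myh6-tg (Nras, 0.59, adjusted p = 0.0416, and Crem, -0.97, adjusted p = 0.0362). Their median log2 fold change was -0.03 and 0.08. Of all genes tested, 17.0% passed in EIIa-tg and 18.3% in Myh6-tg in either direction, the shares to set beside each list here. Of 14 tested genes for other MAP kinase phosphatases and feedback inhibitors, 1 rose (Dusp4, 1.57, adjusted p = 0.0355) and 1 fell in EIIa-tg and 2 rose and 1 fell in Myh6-tg. Dusp10, a phosphatase of p38 and JNK, rose in Myh6-tg (1.83, adjusted p = 0.0378). Spry1, an inhibitor of receptor tyrosine kinase signals, rose in Myh6-tg (1.62, adjusted p = 0.00325) and Dusp7, a phosphatase of ERK, fell there (-1.28, adjusted p = 0.0107). Spred2, another inhibitor of this cascade, fell in EIIa-tg (-0.51, adjusted p = 0.0324). Of 11 further genes of the bZIP family, 4 rose in EIIa-tg and 1 in Myh6-tg and 0 fell. Mafk, a small MAF, rose in both (0.8, adjusted p = 0.0297, and 1.81, adjusted p = 0.0037), and Mafg rose in EIIa-tg (0.77, adjusted p = 0.0166), as did Atf1 (0.55, adjusted p = 0.0323).

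Lists for stimuli that are known to raise immediate early genes were counted in the same way. Of all genes, 8.65% rose in EIIa-tg and 8.96% in Myh6-tg, and 17.0% and 18.3% passed in either direction. Of 10 genes of the integrated stress response, which includes Atf3 among its targets, 2 rose in EIIa-tg and 4 in Myh6-tg and 0 fell. Atf4, its central factor, rose in both (0.75, adjusted p = 0.0227, and 1.15, adjusted p = 0.0161), and its targets Chac1 and Trib3 rose in Myh6-tg (2.09, adjusted p = 0.0146, and 1.31, adjusted p = 0.0148), as did Ddit4 (1.59, adjusted p = 0.0277), while Psat1 rose in EIIa-tg (1.39, adjusted p = 0.0374). Of 8 glucocorticoid response genes 4 rose and 0 fell in each model. Fkbp5, a chaperone of the steroid receptor, rose by 1.87 and 2.15 (adjusted p = 0.0147 and 0.0143), and the metallothionein Mt2 by 3.14 and 2.25 (adjusted p = 0.0147 and 0.00851). Per1 rose in both (0.6, adjusted p = 0.0497, and 2.03, adjusted p = 0.0334), Mt1 in EIIa-tg (1.66, adjusted p = 0.0179) and Sgk1 in Myh6-tg (0.88, adjusted p = 0.0376). Of 8 inducible heat shock genes 2 rose in EIIa-tg (Hspb1, 2.16, adjusted p = 0.0157, and Hsp90aa1, 1.15, adjusted p = 0.018) and 1 in Myh6-tg (Hspb1, 2.14, adjusted p = 0.0479), and 0 fell; Dnajb1, a cochaperone, was at -0.59 and -0.37 (adjusted p = 0.0633 and 0.53). Of 12 hypoxia response genes 0 rose and 1 fell in EIIa-tg, and 3 rose and 2 fell in Myh6-tg. Slc2a1 and Bnip3 rose in Myh6-tg (1.64, adjusted p = 0.00561, and 1.31, adjusted p = 0.0152), as did Adm (1.44, adjusted p = 0.0167), Vegfa fell there (-1.58, adjusted p = 0.024), and the hexokinase gene Hk2 fell in both (-1.18, adjusted p = 0.0264, and -1.3, adjusted p = 0.00563). Dusp4, Dusp10, Atf1, Ddit4, Psat1, Per1, Sgk1, Adm and Vegfa are named to complete these counts, after their values were seen.

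**Figure D4:**
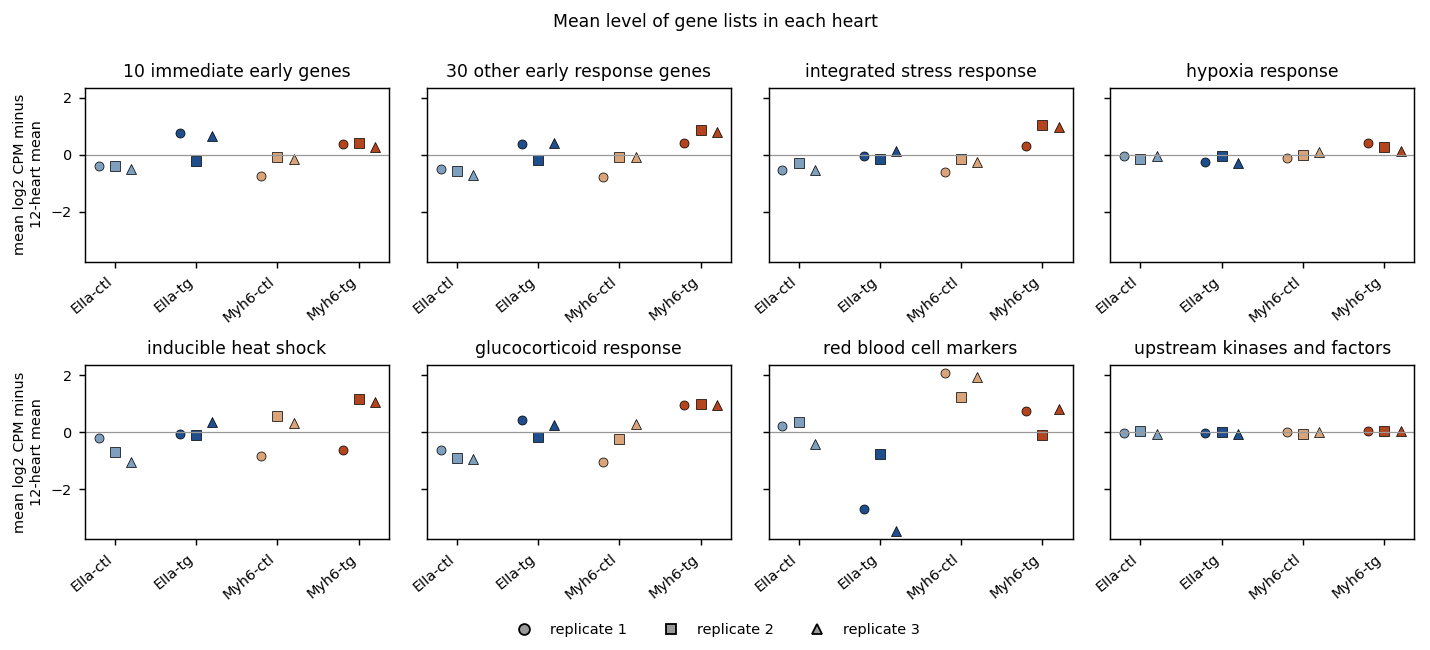
Mean level of each gene list in every heart (log2 CPM minus the mean of the 12 hearts, averaged over the genes; vertical axis) by group (horizontal axis), with symbols for replicates 1 to 3. The 10 immediate early genes lie at 0.76, -0.22 and 0.65 in EIIa-tg and 0.39, 0.42 and 0.26 in Myh6-tg, above their own controls, while the upstream kinases and factors lie close to 0 in all 12 hearts.

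Markers of cell types and the mitochondrial share moved with the groups as well. The share of all genes past the test, in either direction, was 17.0% in EIIa-tg and 18.3% in Myh6-tg. The 5 red blood cell markers summed to 1540 to 2610 CPM in EIIa-ctl, 198 to 1270 in EIIa-tg, 5220 to 8150 in Myh6-ctl and 1870 to 3450 in Myh6-tg, lower in the transgenic hearts of both models. In EIIa-tg replicate 2, in which 9 members were lowest, their sum was the 1270 CPM, the highest of that group. Myh6-ctl replicate 1, in which 10 members were lowest, likewise held the highest sum of its group, 8150 CPM. EIIa-ctl went the other way. There replicate 2, highest in 6 members, held the highest sum (2610 CPM) and replicate 3, lowest in 5, the lowest (1540 CPM). In Myh6-tg, replicate 3, lowest in 6 members, held 3450 CPM, and replicate 1, highest in 6, held 3220 CPM. The 5 macrophage markers all rose in EIIa-tg, from 296 to 468 to 667 to 856 CPM in sum, and 0 of 5 passed in Myh6-tg (579 to 1030 and 586 to 1480 CPM). The 5 fibroblast markers summed to 1030 to 1290, 1660 to 2470, 1380 to 1600 and 2040 to 4370 CPM in EIIa-ctl, EIIa-tg, Myh6-ctl and Myh6-tg, and 2 of 5 rose in EIIa-tg (Pdgfra and Dcn) and 3 in Myh6-tg (Pdgfra, Col1a1 and Col1a2). The 5 cardiomyocyte markers summed to 18600 to 23300, 9630 to 17100, 15700 to 18300 and 5480 to 16600 CPM. In EIIa-tg the highest of these sums, 17100 CPM, was also in replicate 2, beside 9630 and 10400 in replicates 1 and 3. There the 30 other early response genes summed to 1440 CPM, beside 2170 and 2190. In Myh6-tg the highest sum of cardiomyocyte markers, 16600 CPM, was in replicate 1, highest in 6 members. Much of the difference in cardiomyocyte markers between groups lay in Myh6 (means of 12400 and 4880 CPM in the EIIa groups, 9100 and 1500 in the Myh6 groups) and Tnni3, while Tnnt2 (log2 fold change 0.09 and 0.44) and Actn2 (-0.09 and 0.58) passed the test in neither model. The mitochondrial genes took 34.2% to 36.7%, 28.5% to 32.4%, 31.8% to 38.3% and 15.5% to 18.6% of the counts. None of the red blood cell, macrophage, fibroblast and cardiomyocyte markers was at 0 in a whole group. In whole hearts fewer cells of a type and less RNA per cell cannot be told apart, and the part of these markers in the levels of the immediate early genes was not tested.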

How the data were processed

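RNA of 12 mouse hearts, 3 per group, was sequenced as paired-end reads and mapped to GRCm38 with HISAT2, according to the study's methods; the submitters' processing notes name HISAT2 2.0.4, StringTie 2.2.1 and DESeq2 (no version) and list mm10 and GRCm39. The authors deposited raw counts per gene and, in a second table, FPKM, which they scaled to transcript length and mapped fragments. The counting program is not given in the sources used here.

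Hearts were grouped by title, and replicates are labelled as biological. Genes were kept by filterByExpr, given TMM factors and put through glmQLFit and glmQLFTest of edgeR 4.0.16 in R 4.3.3, with Benjamini-Hochberg adjustment over all genes tested. CPM are TMM-scaled, with a prior count of 2 on the log2 scale. Totals of 38343106 to 50969834 counts per heart limit precision as given in the report. Alternatives were DESeq2 1.42.0, RLE factors, other filters on low counts, all hearts in one fit, a replicate block, a sex covariate, removal of mitochondrial genes, limma 3.58.1 on log2 FPKM (pseudocounts 1 and 0.1) and leaving out each heart.

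Same-numbered hearts of the Myh6 groups deviated together (r = 0.285, 0.184 and 0.173 across genes, which are not independent replicates). The EIIa hearts did not (0.0602, -0.0704 and -0.05). No label pairs hearts by number, so the block is an alternative only. Replicate 1 was the male of every group, and pairing and shared sex cannot be told apart for it. No heart was a copy of another: replicates differed by more than sampling noise, with chi-square per gene of 23.6 or more. The fits were tested on simulated data with known changes. The members, gene lists and tests were chosen with earlier results of these data known. The rule named all 10 members, up to 3 genes of each list by lowest p averaging 1 CPM or more, and the 5 genes most like the members by each of 2 measures. The values of 1 such list gene are not reported here. Promoters were RefSeq windows of GRCm38.p6. Figures were drawn with matplotlib 3.10.9.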

Additional observations from a re-analysis of the deposited data

How the results depend on the processing

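In all alternatives run, Junb, Fos and Atf3 kept their higher level in both models and Ier2 in Myh6-tg; which passed the test depended on the setting, and the cause was not tested. The count at the stricter call, 0 in each model, was 3 in each with DESeq2 (all genes, 4.34% in EIIa-tg and 10.7% in Myh6-tg). It was 1 in each with no filter on low counts (1.77% and 4.35% of all genes). At an adjusted p under 0.05 with no fold limit it was 3 and 4 (17.0% and 18.3%). In Myh6-tg the stricter count was also 1 with all 12 hearts in one fit (11.7% of all genes) and 1 with the replicate block (6.33%). The sex covariate gave 1 (8.16%), and limma on log2 FPKM gave 4 at either pseudocount (9.71% and 10.7%). The count at an adjusted p under 0.05 in EIIa-tg, 3, was 1 with all 12 hearts in one fit (1.43% of all genes). It was 0 with limma on log2(FPKM + 1) without a filter, where 1 of 19490 genes passed. In the comparison of controls it was 1 with DESeq2 in place of 0 (2.19% of all genes). Leaving out 1 heart gave, in EIIa-tg, 0 to 4 members at the stricter call (0% to 6.02% of all genes). At an adjusted p under 0.05 it gave 0 to 5 there (0% to 26.6%). In Myh6-tg the counts were 0 to 1 (0.163% to 10.6%) and 0 to 2 (5.01% to 26.7%). With the replicate block, the Myh6 count at an adjusted p under 0.05 fell from 4 to 2 (all genes, 2805 to 3204). In EIIa-tg it was 0, beside 1 of 14908 genes. The block treats same-numbered hearts as pairs, which no label states. At an adjusted p under 0.05, limma on log2 FPKM gave 6 in Myh6-tg in each of its settings. Of all genes, 32.7% passed there with pseudocount 1, 32.4% with 0.1 and 16.9% without a filter. The block changed no other call of a member.

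The sign of a member turned only in comparisons in which that member had not passed the test. In EIIa-tg, Jun was 0.0017 with a CPM filter, 0.00055 with all hearts in one fit, 0.16, 0.17 and 0.16 with limma on log2(FPKM + 1), log2(FPKM + 0.1) and without a filter, and -0.11 to 0.17 when a heart was left out. In Myh6-tg, Klf4 was -0.0034 with DESeq2 and RLE factors, -0.01 with the block, -0.02 with the sex covariate or without mitochondrial genes, and -0.16 to 0.21 when a heart was left out. Nr4a1 was 0.27, 0.29 and 0.27 with the 3 limma settings and -0.48 to 0.15 when a heart was left out, and Fosb 0.02 with limma without a filter. For the difference between models, these limma settings gave Fos 0.2, 0.25 and 0.2, Junb 0.08, 0.05 and 0.08, and Klf4 0.08 in each. Leaving out a heart gave Fos -0.49 to 0.35, Junb -0.49 to 0.0013, Atf3 -0.15 to 0.58 and Klf4 -0.28 to 0.09, and for Fos between controls -0.09 to 0.46. The mean level of the 10 genes in Myh6-tg minus Myh6-ctl, 0.68, was 1.07 on total counts and 0.97 in FPKM.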

Other observations

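Among 12945 genes averaging 1 CPM or more and in no list, the 5 whose log2 CPM followed the mean level of the 10 immediate early genes most closely over the 12 hearts were an unannotated locus that the authors named NewGene_4397 (Pearson's r = 0.98), Gnl1 (0.973), Tprkb (0.972), Cdc42ep4 (0.955) and Clk3 (0.94). Of these, Cdc42ep4, which binds the small GTPase CDC42, went from 26.9 to 39.4 CPM in the EIIa model (log2 fold change 0.54, adjusted p = 0.0488), and Clk3, a kinase of splicing factors, from 21.7 to 34.8 CPM (0.68, adjusted p = 0.0202). None of the 5 passed at an adjusted p under 0.05 in Myh6-tg. After centring on group means, which leaves differences between hearts of a group, the closest were NewGene_4397 (0.959), Xirp1 (0.957), Osgin1 (0.951), Ell (0.939) and Tprkb (0.939). Xirp1, an actin-binding protein of the intercalated disc, went from 138 to 253 CPM in the EIIa model (0.87, adjusted p = 0.0251) and from 184 to 561 CPM in the Myh6 model (1.61, adjusted p = 0.00487). Osgin1, an oxidative stress response gene, rose in EIIa-tg (1.5, adjusted p = 0.0166), and Ell, an elongation factor of RNA polymerase II, in Myh6-tg (1.12, adjusted p = 0.00901). These are the highest of many correlations over hearts that share scaling, and carry no test.

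The remaining marker lists stood as follows, where 17.0% of all genes passed the test in EIIa-tg and 18.3% in Myh6-tg. Endothelial markers (5 genes) summed to 854 to 986 CPM in EIIa-ctl and 645 to 735 in EIIa-tg, where Cdh5, Kdr and Tie1 fell, and to 522 to 1170 and 492 to 603 in Myh6-ctl and Myh6-tg. Atrial cardiomyocyte markers (5 genes) summed to 116 to 356 and 501 to 781 CPM in the EIIa groups and to 153 to 1820 and 4190 to 6520 CPM in the Myh6 groups, with Nppa past the test in EIIa-tg and Myl4 in Myh6-tg. Nppa made up nearly all of this sum (226 and 624 CPM in the EIIa groups, 907 and 5170 in the Myh6 groups), and Myl7, Sln and Bmp10 averaged 1.96 CPM or less in every group. Smooth muscle markers (4 genes) lay between 221 and 840 CPM, and Cnn1, a calponin gene, rose in both models (3.81, adjusted p = 0.0147, and 4.82, adjusted p = 0.0299), while Myh11 fell in Myh6-tg (-1.08, adjusted p = 0.0452). Neutrophil markers (4 genes) lay between 2 and 21.8 CPM, with S100a9 and Csf3r past the test in EIIa-tg, and T cell (3 genes) and skeletal muscle markers (3 genes) at 2.52 CPM or less. Of the 5 red blood cell markers, 1 fell past the test in EIIa-tg (Alas2) and 3 in Myh6-tg (Hba-a2, Hbb-bs and Hbb-bt), and of the 5 cardiomyocyte markers, Ryr2 fell in EIIa-tg and Myh6 and Tnni3 in Myh6-tg.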
